A study of Mus musculus with 30 samples.

Results

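Deletion D removes 16.1 Mb of the *Mus* X chromosome (chrX:51952154-68014381, mm10) from mouse embryonic stem cells (mESCs). The 2 deletion D clones were set against 13 clones that keep both copies of this segment, out of the 30 samples of the series. All 15 are XX F1 hybrid mESCs with a 129/Sv (*Mus*) and a Cast/Ei (*Cast*) genome, untreated, and all carry a heterozygous deletion of *Rnf12* (*Rlim*) on the *Mus* allele. They derive from the same *Rnf12*+/- founder line, and clones of a line are independent. The 13 comparison clones each lack another *Mus* X segment: deletions A, B and AB with 1 clone each, and deletions C, F, H, I and K with 2 clones each. Each deletion allele keeps a LoxP-flanked neomycin cassette, and the cells were grown on irradiated mouse embryonic fibroblasts, which were reduced by pre-plating before harvest. The start of deletion D is the end of deletion C. Of the 244 annotated genes wholly inside deletion D, 64 are protein-coding, 45 are microRNA genes and most others are pseudogenes, and no gene crosses a border.

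Cells with a single active X chromosome raise the output of that X, which is called X-chromosome upregulation (XCU). In XX mESCs both X chromosomes are active, so that a gene inside a segmental deletion is left with 1 active copy in cells that otherwise have 2 active X chromosomes. The comparison therefore asks what the remaining *Cast* copy of each gene yields, and which genes elsewhere differ. The segment holds *Hprt*, which recycles purine bases, the glypican genes *Gpc3* and *Gpc4*, whose products carry heparan sulfate at the cell surface, and the transcription factor gene *Sox3*.

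The deletion D libraries held 10144051 and 10174342 counts, the comparison libraries 8816184 to 10680026, and 12.18% to 12.65% of these were assigned to an allele. In 2 comparison libraries whole autosomes stood apart: in deletion I clone 1 the median gene of chromosomes 1 and 14 lay 0.53 and 0.52 (log2) above the comparison median, with 68.1% and 65.6% of allelic counts from *Mus*. In deletion F clone 2 chromosome 8 lay 0.40 above, with 37.2% from *Mus*. Chromosome medians of deletion D stayed between -0.11 and 0.02. Embryonic stem cell genes were measured in normalised CPM (counts per 1e6 counts of a library, after scaling). *Pou5f1* was at 1483 and 1335 and *Nanog* at 462 and 438 in the deletion D clones. Both lay inside the ranges of the 13 other libraries (1008 to 1504 and 406 to 595). *Esrrb*, which the study also used as a pluripotency gene, lay below all 13, at 999 and 1003 against 1070 to 1803. *Sox2* did so too, at 323 and 310 against 331 to 389. Neither was called in the test described below.

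Summed over the 64 protein-coding genes of the segment, total expression of deletion D was near 50% of that of the other lines, whereas its *Cast* reads lay within their range. The sum was 796 CPM in deletion D clone 1 and 772 CPM in clone 2, against 1409 to 1771 CPM in the 13 comparison libraries (mean 1609 ± 129, SD, n = 13). Both clones lay below every comparison library, at 48.7% of their mean. Reads assigned to *Cast* summed to 1186 and 1079 CPM (of *Cast* counts) in deletion D, and to 942 to 1299 in the others (mean 1109 ± 111, SD, n = 13), so that the groups overlapped. The deletion D mean was 102% of the comparison mean. The single deletion C-G clone, whose larger *Mus* deletion includes the whole segment, gave 888 CPM in total and 1202 CPM from *Cast*.

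**Figure D1:**
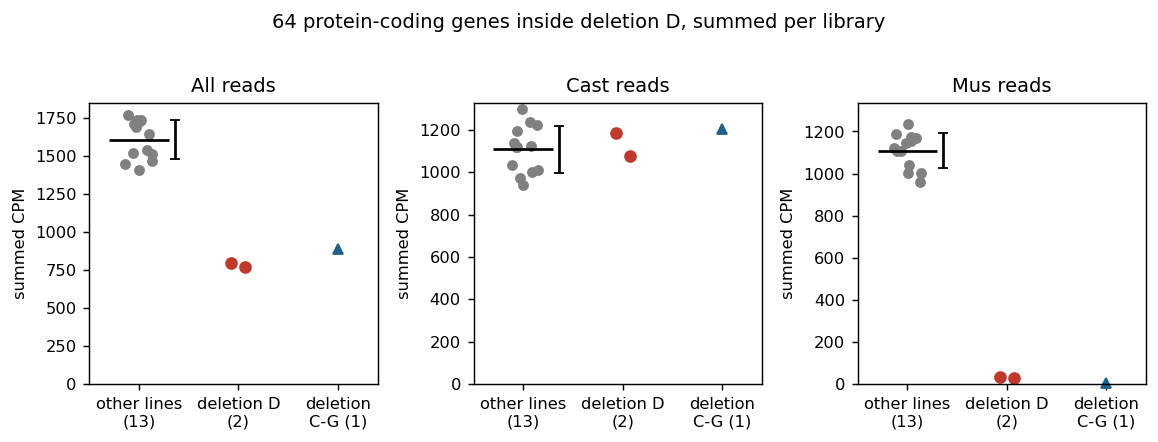
Summed CPM of the 64 protein-coding genes inside deletion D, per library, for all reads, *Cast* reads and *Mus* reads (y axes, each kind of read normalised by itself). Grey points are the 13 comparison libraries with their mean (line) and SD (bar), red points the 2 deletion D clones and the triangle the deletion C-G clone. Red points lie far below the grey ones for all reads (796 and 772 against 1409 to 1771) and *Mus* reads, and among them for *Cast* reads.

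*Mus* counts inside the segment describe the deletion itself, since the study set its borders with allele-specific reads of these libraries. No test of them is reported. They were 23 of 710 allelic counts in clone 1 (3.24%, 95% Wilson interval 2.17 to 4.81%) and 18 of 662 in clone 2 (2.72%, 1.73 to 4.26%), where the other lines had 49.0% to 55.1%. These intervals cover counting error only. The residue was uneven: over both clones *Gpc4* had 13 *Mus* and 61 *Cast* counts, *Htatsf1* 7 and 155, and *Fhl1* 6 and 55, whereas *Hprt* had 2 and 240 and *Gpc3* had 0 and 79. Without *Gpc4*, *Htatsf1* and *Fhl1*, picked here for their values, 7 and 8 *Mus* counts remained. Deletion C-G had 4 *Mus* counts in all.

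Gene by gene, 42 of the 244 genes inside reached the minimum of 1 CPM on average over the 15 libraries, of which 28 were protein-coding and 14 processed pseudogenes. Of the other 36 protein-coding genes, 17 had no count in any of the 15 libraries. Total counts were compared with edgeR's quasi-likelihood test, with Benjamini-Hochberg adjustment across the 14793 genes tested (0.101% of them passed 0.05 in either direction). Of the 28 protein-coding genes inside, 9 were lower in deletion D, 0 were higher, and no pseudogene was called. Outside the segment, 0.00678% of genes were called lower and 0.0339% higher. In 16 of the 28 genes both deletion D values lay below all 13 others, and this was so for 3.82% of genes outside.

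*Hprt* (chrX:52988137-53021659) had 156 and 143 CPM in deletion D, and 291 to 396 CPM with a median of 363 in the other lines. Both clones were below every comparison library, and the log2 fold change was -1.24 ± 0.13 (SE; edgeR adjusted p = 7.67e-05). *Htatsf1*, a cofactor of transcription elongation and splicing, had 70.0 and 62.7 CPM against 136 to 180 (log2 -1.25 ± 0.12, edgeR adjusted p = 7.06e-05). *Ints6l*, related to a subunit of the Integrator complex, had 16.9 and 26.5 CPM against 35.3 to 55.7 (log2 -0.999 ± 0.178).

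*Mmgt1*, which encodes a subunit of the endoplasmic reticulum membrane protein complex, had 16.6 and 18.3 CPM, below the 31.4 to 67.4 CPM of the other lines (log2 -1.53 ± 0.24). The groups did not overlap.

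*Fam122b*, *Zfp449* and *Fhl1* were also called. *Fam122b*, of a family that binds protein phosphatase 2A, had the lowest fold change of the 9, with 12.6 and 17.0 CPM against 36.6 to 51.1 (log2 -1.56 ± 0.16, edgeR adjusted p = 7.06e-05). *Zfp449*, a zinc finger gene, had 6.16 and 7.93 CPM against 13.6 to 19.3 (log2 -1.25 ± 0.18). *Fhl1*, a LIM domain gene, had 61.5 and 60.8 CPM against 88.7 to 150.3 (log2 -0.95 ± 0.17). The 9 genes lay at 33.8% to 51.8% of their comparison means.

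**Figure D2:**
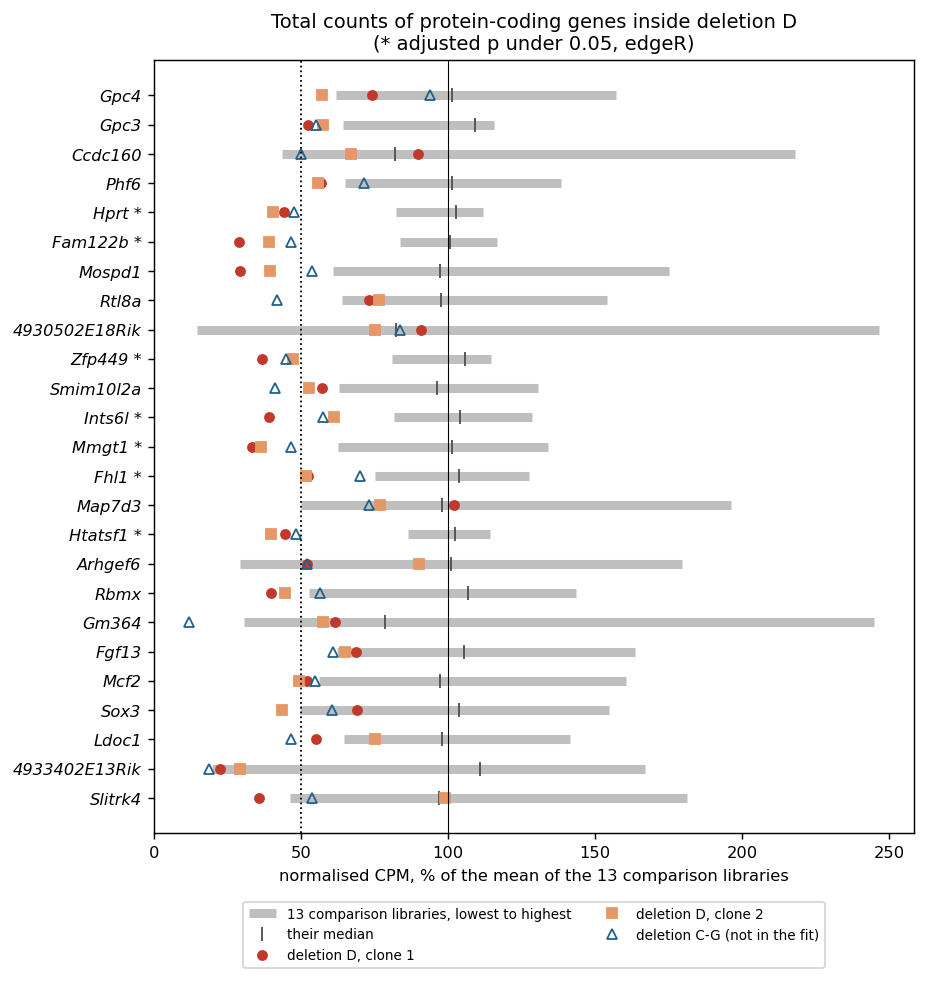
Normalised CPM of 25 of the 28 protein-coding genes inside deletion D that reached the minimum, in order along the X, as a percentage of the mean of the 13 comparison libraries (x axis). Grey bars span the 13 libraries with their median as a tick, circles and squares are deletion D clones 1 and 2, triangles the deletion C-G clone, and asterisks mark the 7 of them called by edgeR. Most deletion D values cluster around the dotted line at 50%, and the widest grey bars belong to genes that were not called.

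All 19 protein-coding genes that were not called had fold changes below 0, from -1.94 to -0.16 (log2), and 7 of them had both deletion D values below all others. *Gpc3* was at 102 and 112.1 CPM against 126 to 226, without overlap (log2 -0.87 ± 0.20, edgeR adjusted p = 0.143). *Phf6*, a chromatin-associated PHD finger gene, was at 33.9 and 33.4 CPM against 38.9 to 83.0, and the guanine nucleotide exchange factor gene *Mcf2* at 58.7 and 55.9 CPM against 63.3 to 182. *Rbmx*, an RNA-binding protein gene, was at 14.8 and 16.4 CPM against 19.5 to 53.2. *Mospd1* and *Smim10l2a* also lay below all others, at 3.81 and 5.16 CPM against 8.00 to 23.0, and at 6.65 and 6.12 CPM against 7.32 to 15.2.

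The remaining 12 overlapped with the other lines. The microtubule-associated gene *Map7d3* came nearest to the 2-copy level, with 31.2 and 23.5 CPM against 15.3 to 60.1 (log2 -0.16 ± 0.38). *Gpc4* was at 50.0 and 38.5 CPM against 41.7 to 106, *Fgf13*, which encodes an intracellular FGF homologous factor, at 10.95 and 10.3 against 9.89 to 26.1, and *Sox3* at 8.80 and 5.54 against 6.35 to 19.8. *Ldoc1*, *Ccdc160*, *Rtl8a*, *4930502E18Rik*, *Arhgef6*, *Gm364*, *4933402E13Rik* and *Slitrk4* lay between 0.59 and 8.03 CPM in deletion D. In *Gpc4*, *Fgf13* and *Sox3*, 1 or both deletion D values were near or under the lower end of the other lines, and in *Map7d3* both were well inside.

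Per copy, that is with 1 copy in deletion D and 2 elsewhere, no protein-coding gene was higher and none lower at an edgeR adjusted p of 0.05. At an unadjusted p of 0.05, 1 of the 28 was higher and 4 were lower, and DESeq2 called 0 higher and 1 lower (*Fam122b*, log2 -0.57). The median per-copy change over the 28 was 0.09 (log2), with 17 values above and 11 below 0, and the median change of all genes outside was 0.00. The single value above was *Map7d3*, at 0.84 (95% interval from the same fit 0.09 to 1.58). For *Hprt* the interval ran from -0.49 to 0.01, for *Htatsf1* from -0.48 to -0.01, for *Fhl1* from -0.28 to 0.39 and for *Ints6l* from -0.35 to 0.35. A log2 change of 1 per copy would restore the 2-copy level, and the choice of genes called lower on total counts keeps that value out of their intervals. The same choice lowers their per-copy values: the median was -0.25 over the protein-coding genes called lower and 0.24 over those not called. The interval of *Map7d3*, which was not called, includes 1, and that of *Ccdc160* (-0.39 to 1.68), a low gene, includes both 0 and 1. Both values also lie within the intervals of *Rtl8a*, *4930502E18Rik*, *Arhgef6*, *Gm364*, *Fgf13* (-0.31 to 1.14) and *Slitrk4*. For these genes the fit cannot tell a halved level from a kept one.

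The deletion C-G clone, which lacks the same *Mus* copies, was set beside deletion D against the same comparison libraries, with no test. The median of the 28 genes was 52.7% of the comparison mean in deletion C-G and 53.3% in deletion D. *Hprt* was at 168 CPM, *Htatsf1* at 76.0, *Mmgt1* at 23.5 and *Gpc3* at 107, each below the lowest comparison library. *Gpc4* was at 63.4 CPM and *Fhl1* at 82.4 CPM, or 93.9% and 69.8% of the comparison mean.

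On the *Cast* allele itself, where every library has 1 copy, 7873 genes had a mean of at least 10 *Cast* counts and 0.0% of them were called in either direction. Among them were 16 genes inside, and 0 were called higher. At an unadjusted p of 0.05, 1 of the 16 was higher and 1 lower, and DESeq2 also called 0 inside. *Cast* counts of *Hprt* were 125 and 115 in deletion D and 88 to 134 in the other lines (log2 0.17 ± 0.14), and those of *Mcf2* 72 and 60 against 20 to 96 (0.14 ± 0.31). *Gpc3* had 44 and 35 against 26 to 61 (-0.13 ± 0.24), and *Fhl1* 26 and 29 against 17 to 38 (0.00 ± 0.24). In these 4 genes the groups overlapped.

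The 2 genes at the ends were *Smim10l2a* and *Htatsf1*. *Smim10l2a* had 20 and 16 *Cast* counts against 5 to 16 (log2 0.89 ± 0.34, edgeR unadjusted p = 0.014, adjusted p = 0.379). *Htatsf1* had 71 and 84 *Cast* counts against 77 to 134 (-0.36 ± 0.15, edgeR unadjusted p = 0.024, adjusted p = 0.40). After normalisation to *Cast* counts, *Htatsf1* was the single gene of the 16 in which both deletion D values lay below all others, and none lay above. Outside the segment 2.09% of genes lay below and 2.67% above. *Map7d3* had 111 and 79 *Cast* counts against 34 to 141 (0.52 ± 0.32).

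All 5 genes that were called higher per copy were processed pseudogenes, copies of spliced transcripts of genes elsewhere (over all genes tested, 0.0676% were called higher in this fit). Their total counts did not fall with the deletion. *Gm14586* was at 41.2 and 32.9 CPM in deletion D and at 24.6 to 36.2 in the other lines, and *Rps2-ps13* at 50.0 and 56.2 CPM against 43.2 to 68.0. *Hspa9-ps1* was at 36.8 and 33.7 CPM against 29.98 to 47.0, *Sms-ps* at 44.2 and 40.9 against 16.8 to 44.0, and *Gm14681* at 170.3 and 173 against 130.04 to 198. Per copy these were log2 changes of 1.36 ± 0.13, 0.91 ± 0.12, 0.83 ± 0.13, 1.66 ± 0.26 and 1.03 ± 0.11.

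The pseudogenes were set beside the genes they resemble, because some differ by a few bases over their whole length. For 2 of them, windows of 30 bases from the coding part of the gene and from its pseudogene are shown, with the single differing base in capitals (GENCODE M21 transcripts, 5′ to 3′, positions counted from 1 at the start of the window).
Rps2: ggcccaggattaggTggccgcggcggcttc
Rps2-ps13: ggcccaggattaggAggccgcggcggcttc
Npm1: aaagacttaaaaccAtcaacaccgagatca
Gm14681: aaagacttaaaaccGtcaacaccgagatca
The substitutions are T15A and A15G. Over 882 aligned bases *Rps2-ps13* differed from *Rps2* (chromosome 17) at 7, and over 411 *Gm14681* differed from *Npm1* (chromosome 11) at 2. *Sms-ps* matched *Sms*, another X-linked gene, at 1101 of 1101 bases, and *Hspa9-ps1* matched *Hspa9* at 94.7% of 1929.

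Reads were 50 bases long. Of the 50-base windows of *Gm14586*, 72.1% also occur in the transcripts of another gene, and the shares were 89.8% for *Rps2-ps13*, 78.2% for *Gm14681* and 6.53% for *Hspa9-ps1*. Of *Sms-ps*, every window (1052 of 1052) does. The median share was 40.0% over the 14 pseudogenes and 0.0% over the 28 protein-coding genes, in which the highest was *Rtl8a* at 82.5%. Allelic counts could be read for 2 of the 5, since *Rps2-ps13* and *Gm14681* had 0 in every library and *Sms-ps* had 3 and 3 *Mus* counts in deletion D. *Gm14586* had 258 and 230 *Mus* and 0 *Cast* counts in deletion D, where its *Mus* copy is deleted, and *Hspa9-ps1* had 29 and 26 *Mus* and 11 and 14 *Cast* counts. In the comparison libraries *Gm14586* had 175 to 218 *Mus* and 0 *Cast* counts, and *Hspa9-ps1* 16 to 38 *Mus* and 10 to 24 *Cast* counts. *Mus* counts of these 2 in deletion D cannot come from their deleted *Mus* copies. Counts listed under the 5 pseudogenes are therefore uncertain as to the copy they came from, and their source was not tested.

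**Figure D3:**
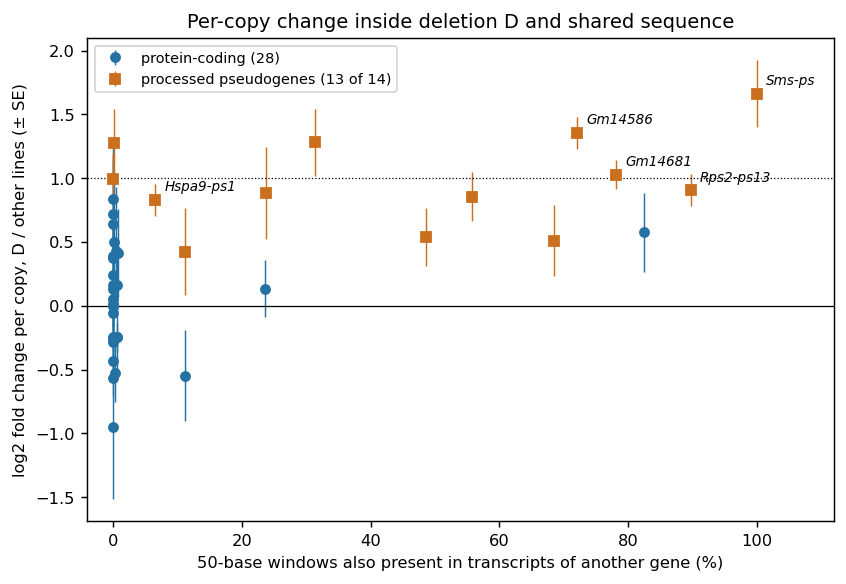
Per-copy log2 fold change of deletion D against the other lines (y axis, bars are SE) and share of 50-base windows found in transcripts of another gene (x axis) for 28 protein-coding genes (circles) and 13 of 14 processed pseudogenes (squares) inside the deletion. The pseudogene *Gm16411*, near 0 counts in deletion D, is left out. The 5 named pseudogenes, called by edgeR, lie between 0.83 and 1.66, and the protein-coding genes lie on both sides of 0.

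The 3 tested protein-coding genes nearest each border lay 151 to 746 kb before the start and 664 to 2329 kb beyond the end. None of them was called on total counts. Before the start, where the deletion C clones were left out because they lack the region, *Mbnl3*, *Hs6st2* and *Usp26* were at 6.75 and 5.93, 5.97 and 6.69, and 25.5 and 21.0 CPM in deletion D, with log2 changes of -0.24 ± 0.24, 0.65 ± 0.31 and -0.37 ± 0.53. Beyond the end, *Fmr1*, which encodes an RNA-binding regulator of translation, was at 151 and 156 CPM against 164 to 232, without overlap (log2 -0.33 ± 0.12, edgeR adjusted p = 0.266). *Fmr1nb* and *Ids* were inside the range of the others (log2 -0.02 ± 0.27 and -0.05 ± 0.13). Allelic counts of *Fmr1* were 9 and 9 from *Mus* and 19 and 15 from *Cast*, within the ranges of the other lines (7 to 28 and 10 to 29).

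In the rest of the genome 5 genes were higher and 1 was lower in deletion D. The adjustment also covered the genes inside, many of which fell with the deletion, and this lowers the adjusted p-values of genes outside. An adjustment over genes outside alone was not made and would be stricter, so these calls rest in part on the genes inside. *Apln*, the gene of the peptide ligand of the apelin receptor, lies on the X 3917 kb before the start of the deletion (chrX:48025146-48034853). It was at 22.3 and 18.4 CPM in deletion D and at 6.32 to 11.8 CPM in the 11 libraries that keep both copies (log2 1.15 ± 0.18, edgeR adjusted p = 0.0186). Its *Mus* counts were 27 and 34 against 5 to 16, and its *Cast* counts 12 and 14 against 3 to 12. *Ccnd2*, the cyclin D2 gene, was at 60.2 and 46.0 CPM against 13.3 to 30.3 (log2 1.26 ± 0.23, edgeR adjusted p = 0.0364).

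*Serpinh1*, a collagen chaperone gene, was at 133 and 121 CPM against 49.5 to 96.3 (log2 0.93 ± 0.17, edgeR adjusted p = 0.0294). *Hspa1b*, an inducible heat shock gene, was at 10.8 and 11.3 CPM against 2.94 to 6.10 (log2 1.25 ± 0.21, edgeR adjusted p = 0.023), and its near-identical neighbour *Hspa1a*, named after its values were seen, at 4.21 and 4.87 against 1.11 to 3.94. Reads of these last can be split between them. *Asap2*, an Arf GTPase-activating protein gene, was the single gene that was lower, at 48.3 and 59.6 CPM against 69.5 to 92.4 (log2 -0.61 ± 0.11, edgeR adjusted p = 0.0294). The pseudogene *Gm13292*, outside the naming rule, was at 0.10 CPM in clone 1 and 22.5 in clone 2, and at most 2.19 in the others, so that its call rests on 1 clone. In the other 5 both clones lay beyond all comparison values, as did 3.97% of genes outside on the upper side.

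**Figure D4:**
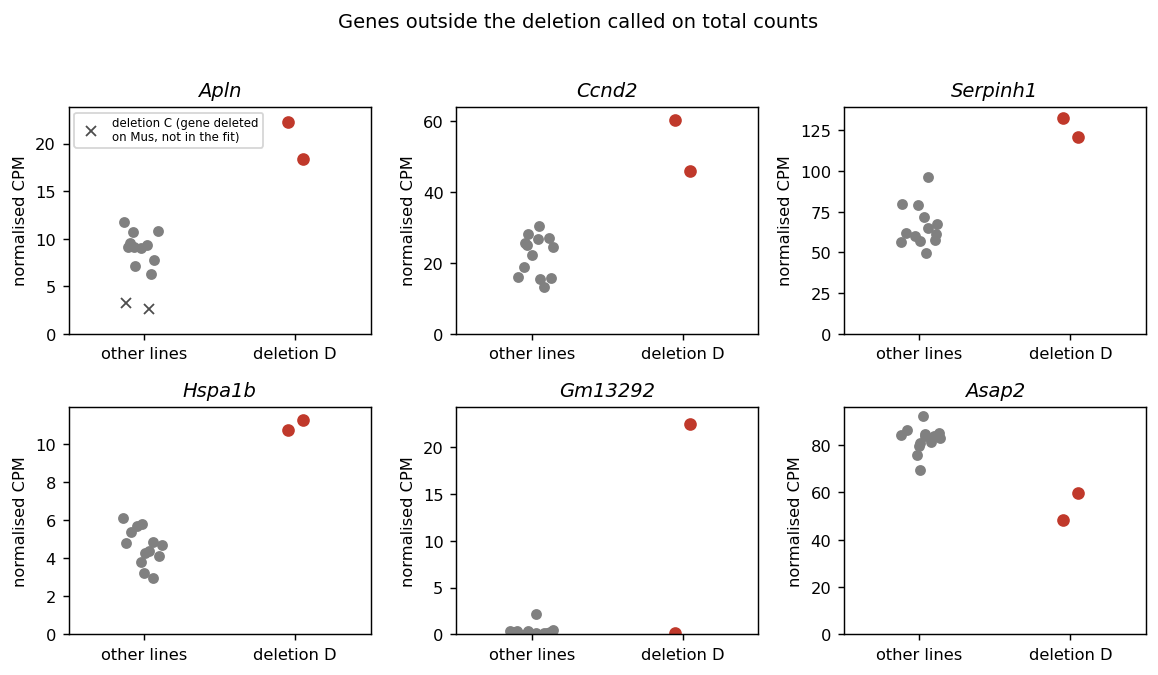
Normalised CPM (y axes) of the 6 genes outside the deletion called by edgeR on total counts, with each comparison library in grey and the 2 deletion D clones in red. Crosses mark the deletion C clones, in which the *Mus* copy of *Apln* is deleted. Both red points lie beyond all grey points in 5 genes, and in *Gm13292* 1 of them lies at the bottom.

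These 6 calls depended on single libraries. Without deletion D clone 1 there was 1 call outside the segment and without clone 2 there were 0, and without deletion H clone 1, K clone 1 or K clone 2 there were 3. The call left without deletion D clone 1 was *Gm13292*, which is high in clone 2 alone. Without deletion A, B, AB or I clone 1 there were 14, 10, 22 and 10 calls outside. The 9 calls inside became 3 without either deletion D clone, and the 5 per-copy calls became 2 and 1. Without deletion I clone 1 and deletion F clone 2 together, 6 genes were called outside (3 of them among the first 6, without *Ccnd2*, *Serpinh1* and *Asap2*), 10 inside and 5 per copy. DESeq2 called 39 genes higher and 84 lower outside.

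By allele, 0 genes outside were called on *Cast* counts (423 higher and 406 lower at an unadjusted p of 0.05; DESeq2 called 7), and 0.0244% on *Mus* counts. These were *Apln* (log2 1.43) and *Axl*, a receptor tyrosine kinase gene named after its values were seen. *Axl* had 79 and 75 *Mus* counts in deletion D against 17 to 44 (log2 1.45, edgeR adjusted p = 0.00788), and 0 and 4 *Cast* counts against 0 to 7. The fit on *Mus* counts also held genes inside, which lost their *Mus* copy, and this lowers the adjusted p-values of genes outside. An adjustment over genes outside alone was not made and would be stricter, so the calls of *Apln* and *Axl* rest in part on the genes inside. Without either deletion D clone 0 genes were called on *Mus* counts, and without deletion A, AB or I clone 1 there were 5, 5 and 4. On *Cast* counts 1 was called without deletion A or without deletion B.

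Of 20 markers of fibroblasts, the feeder cells, none was called at an edgeR adjusted p of 0.05. Their fold changes were above 0 in 17, with a median of 0.96 (log2), and 10 had both clones above all 13 other libraries, against 3.97% of genes outside. *Col1a1*, a fibrillar collagen gene, was at 169 and 170.3 CPM against 31.1 to 127 (log2 1.36 ± 0.38, edgeR adjusted p = 0.196), and *Acta2*, of smooth muscle actin, at 76.4 and 64.2 against 13.5 to 42.0 (1.503 ± 0.337, edgeR adjusted p = 0.123). *Postn* was at 19.6 and 22.3 CPM against 1.82 to 13.2 and *Thy1* at 79.8 and 63.7 against 27.6 to 50.1. The summed level of the list, most of it from *Fn1*, was 2946 and 3148 CPM, inside the 1840 to 3712 of the others, and no marker of the list was at 0.

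Over the whole list 65.9% and 63.8% of allelic counts were *Mus* in deletion D, inside the 53.1% to 70.9% of the other libraries. The markers differed in this: *Thy1* had 114 and 111 *Mus* and 78 and 63 *Cast* counts. *Col1a1* had 116 and 132 *Mus* and 2 and 2 *Cast* counts, *Acta2* 182 and 138 *Mus* and 0 and 1 *Cast*, and *Lox* 76 and 94 *Mus* and 0 and 0 *Cast*. In the comparison libraries *Mus* counts of these last 3 were 21 to 90, 27 to 97 and 9 to 84. The part of these markers in the calls of *Serpinh1* and *Axl*, in the other calls outside and in the *Mus* residue of *Gpc4*, *Htatsf1* and *Fhl1* was not tested. In bulk samples, fewer cells of a type and less RNA per cell, or more of both, cannot be told apart.

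Genes of naive pluripotency were mostly lower in value and those of the formative and primed state mostly higher, with none of the 18 and 14 called. The naive list summed to 7476 and 7324 CPM in deletion D and to 7583 to 10464 in the other lines, without overlap, with a median log2 change of -0.20 and 15 of 18 values below 0. *Esrrb*, an orphan nuclear receptor gene, was at 999 and 1003 CPM against 1070.2 to 1803 (log2 -0.61 ± 0.17, edgeR adjusted p = 0.196). *Tfcp2l1* was at 307 and 338 CPM against 378 to 1461 (-1.13 ± 0.36), and *Sox2* at 323 and 309.9 against 331 to 389 (-0.20 ± 0.08). The formative and primed list summed to 1560 and 1351 CPM against 510.3 to 1578, the highest being deletion AB, with a median of 0.61 and 12 of 14 values above 0. *Zic2* was at 113 and 80.3 CPM against 16.8 to 77.4, *Dnmt3b* at 435 and 376 against 101 to 441 and *Otx2* at 187 and 165 against 57.1 to 237.

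**Figure D5:**
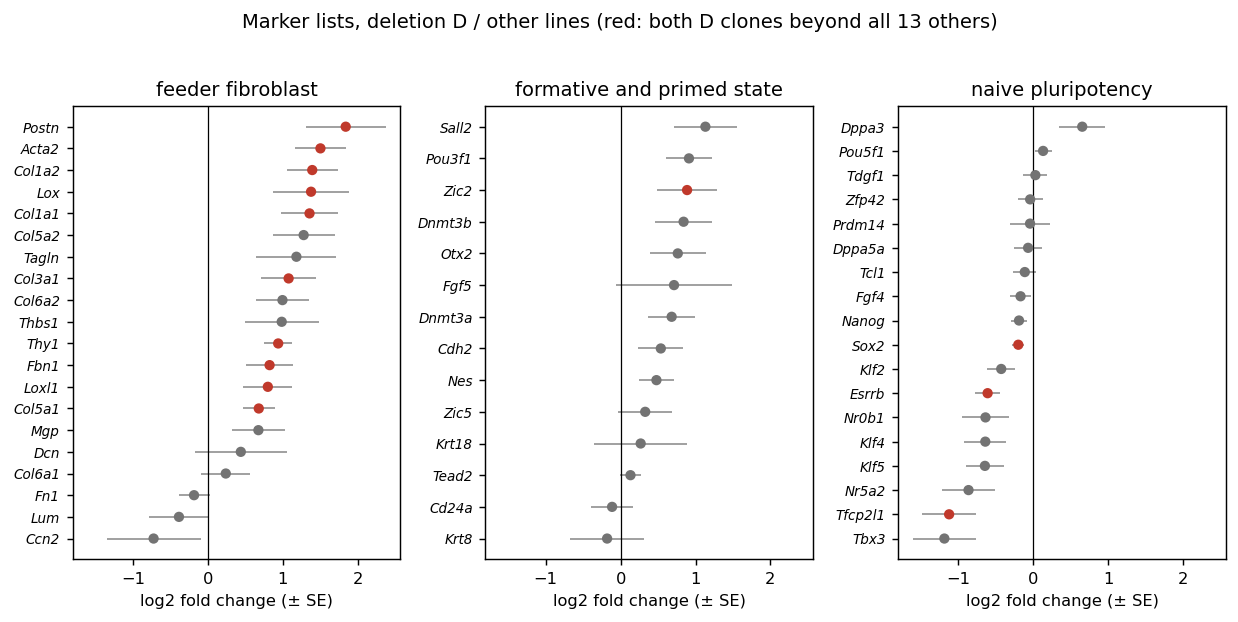
Log2 fold change of deletion D against the other lines (x axes, bars are SE) for each gene of 3 marker lists. Red points are genes in which both deletion D clones lie beyond all 13 comparison libraries (10 of 20 fibroblast and 1 of 14 formative and primed genes above, 3 of 18 naive genes below, against 3.97% and 3.82% of genes outside). No gene shown was called by edgeR.

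Of 25 measured genes of purine synthesis and salvage, *Hprt* was called lower and none higher, and the median was 0.08 (log2). *Aprt*, which salvages adenine, was at 279 and 240.0 CPM against 186 to 279 (0.25 ± 0.11). Of 23 genes of glypicans and heparan sulfate none was called (median -0.13), 2 lay above all other lines (*Sdc3* and *Xylt2*) and 2 below (*Hs6st1*, and *Gpc3* from inside the deletion), where 3.97% and 3.82% of genes outside did so, and the list summed to 1197 and 1173 CPM against 1184 to 1551. Of 24 paralogues of genes inside none was called (median -0.02). Beside the same shares of genes outside, 1 lay above all other lines (*Zic2*) and 2 below (*Sox2* and *Zfp36l2*). *Gpc1* and *Gpc6* had log2 fold changes of 0.17 ± 0.26 and -0.23 ± 0.40, and *Rbmxl1* one of 0.12 ± 0.17.

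No gene of the other lists was called either. Medians were 0.07 for 11 Wnt target genes, -0.39 for 16 FGF and MAPK target genes, -0.16 for 6 mesendoderm, 0.08 for 8 neuroectoderm and -0.09 for 13 primitive endoderm genes. They were 0.18 for 13 germline genes sensitive to DNA methylation, 0.17 for 12 genes of the DNA methylation machinery and -0.12 for 17 p53 target genes. None of the 17 genes of the two-cell-like state reached the minimum. *Lefty2*, an antagonist of Nodal, was at 201 and 169 CPM against 204 to 336 (log2 -0.58 ± 0.14, edgeR adjusted p = 0.178). *Rlim*, for which all 15 clones have 1 intact copy, was at 139.95 and 153 CPM against 157 to 378 (log2 -0.61 ± 0.25, edgeR adjusted p = 0.292), and *Xist* at 4.50 and 4.40 CPM against 0.20 to 9.71.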

How the data were processed

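RNA-seq of 15 libraries was used (TruSeq stranded mRNA, paired reads of 50 bases). The authors trimmed the reads with Trim Galore 0.6.7, mapped the trimmed reads (HISAT2 2.2.1, mm10 with SNPs masked), split them by allele with SNPsplit and counted reads over exons with strand. The paper names featureCounts and the submitters' processing notes HTSeq 0.12.4 as the counter. The deposited values are raw counts per gene, of all reads, *Mus* reads and *Cast* reads. Of 55421 genes, 55240 were matched to GENCODE M21 by identifier.

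Groups followed the labels. Counts were tested with edgeR 4.0.16 in R 4.3.3 (quasi-likelihood, deletion D against the other lines, TMM factors of autosomal genes), over genes with a mean of at least 1 CPM or, by allele, 10 counts. X genes inside another line's deletion were tested without that line. Per copy, library sizes of deletion D were multiplied by 0.5 for genes inside. Adjusted p-values covered all genes tested, inside and outside the deletion together. The clones are independent, and the fit held no term for line. Its p-values therefore measure the spread between lines and between clones of a line together, and both deletion D clones are of the same line. Normalised CPM used the same factors. Windows of 50 bases were compared with all GENCODE M21 transcripts on the same strand.

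On simulated data with 14519 genes, the fit on total counts recovered 52 of 100 genes with a true log2 change of 1, 93 of 100 with 2, and called 9 of 14277 unchanged genes. The per-copy fit called 0 of 21 halved genes and 12 of 21 kept at the 2-copy level. On *Cast* counts 57 and 89 of 100 were called. Recovery and calls of unchanged genes with an effect shared by clones of a line were not tested.

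Members and gene lists were chosen with earlier results of these data known. Genes named were the measured protein-coding genes inside, those called per copy, called protein-coding genes outside beyond all comparison values, the 3 nearest each border, called list members, and *Rlim*, *Xist*, *Pou5f1*, *Nanog* and *Esrrb*. Other genes, such as list members that were not called, were picked with their values in view. Alternatives were the tool (DESeq2 1.42.0), normalization, filters, the design and each library left out. Some genes inside the deletion, and what rests on them, are not reported here by name, though counts, sums and medians include them.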

Additional observations from a re-analysis of the deposited data

How the results depend on the processing

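Calls outside the deletion on total counts (6) became 123 with DESeq2 (84 of them lower), 1771 with 1 term per line, 1 with the clones of a line summed and 14 with the replicate number as a replicate block, and ranged from 0 to 22 with each library left out. Calls lower inside (9) became 21, with 1 term per line, and 1 with summed clones, and 3 to 11 with each library left out. Calls higher per copy (5) became 11 with 1 term per line, *Map7d3* and *Gpc4* among them (with *Fam122b* and *Mmgt1* called lower per copy), and 0 with summed clones, and 1 to 5 with each library left out. Calls higher inside on *Cast* counts stayed at 0 in all 24 alternatives. Calls outside on *Cast* counts (0) became 7 with DESeq2, 4 without a filter beyond 1 count, 142 with 1 term per line and 1 with the replicate block, and 0 to 1 with each library left out. Calls outside on *Mus* counts (2) became 6 with DESeq2, 6 without the filter, 188 with 1 term per line, 0 with summed clones, 4 without the 2 libraries with whole-chromosome shifts (chosen after seeing the data), 3 with the replicate block, and 0 to 5 with each library left out. With 1 term per line the error comes from pairs of clones alone, and with summed clones deletion D is 1 sample. The call left outside with summed clones was *Gm13292*, which is high in clone 2 alone. A lone deletion D clone is assumed to vary like the others. RLE factors, TMM factors of all genes and filterByExpr left all 6 counts within 1.5 times. Genes crossing a border would count as inside in 1 alternative, and there were 0. The main fit did not take the replicate numbers as a pairing of clones. Differences between clones 1 and 2 of 2 lines correlated at -0.20 to 0.34, over 0.1 in 7 of 15 pairs of lines. The highest value was that of deletions D and F. These values do not settle whether clones with the same number share an effect. No named gene that was called changed direction in any alternative. *Fam122b* was called in 24 of 24 alternatives, *Hprt* and *Htatsf1* in 23, and *Ccnd2* in 15. At this depth *Cast* counts of most genes inside were under 50 per library, which limits what the test by allele can show.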
